A study of Mus musculus with 2 samples.

Results

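Adventitial T cells were taken from 2 droplet libraries of single CD45-positive cells as the barcodes that carried transcripts of the T cell receptor complex. A barcode was a member when at least 2 of the 6 genes *Cd3d*, *Cd3e*, *Cd3g*, *Trac*, *Trbc1* and *Trbc2* had a unique molecular identifier (UMI, 1 captured transcript molecule), when the complement genes *C1qa*, *C1qb* and *C1qc* of macrophages summed to at most 2 UMIs, and when the B cell genes *Cd79a* and *Ms4a1* were at 0. The rule found 369 T cells among 4504 barcodes that held 300 to 6500 genes and at most 5% mitochondrial UMIs. Of these T cells, 48 of 306 barcodes came from the steady-state library and 321 of 4198 from the AngII library. The members were selected on measured levels of these genes, so those levels are given as a description.

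Both libraries came from 16-week-old mice that carry *Rank*-Cre and the *Rosa26*-eYFP reporter (RankCreRosa26eYFP) on a C57BL/6 background. *Rank* (*Tnfrsf11a*) drives the recombinase in the line, which permanently marks progenitors from the early embryo and their macrophage descendants and leaves most progeny of bone marrow stem cells unmarked. Live CD45-positive cells of the aortic adventitia, the outer coat of the vessel, were enriched on beads and sorted. The steady-state cells came from 3 animals, and the AngII cells from 2 animals that received angiotensin II (AngII) at 1.8 µg per kg and minute for 10 days from an implanted osmotic pump. The cells of each group were pooled into 1 library, the cells carry no label of their animal, and no p-value can be given with 1 library per condition.

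T cells recognise antigen through a receptor whose variable chains are joined from gene segments during development in the thymus, and the CD3 chains pass the signal into the cell. Most T cells carry an alpha and a beta chain together with CD4 (helper and regulatory cells) or CD8 (cytotoxic cells), and a smaller lineage carries a gamma and a delta chain. Naive cells circulate between blood and lymph nodes with the aid of the receptors CCR7 and S1PR1, while cells that stay in tissues lose these and gain others such as CXCR6. In the adventitia T cells are found at rest and have been studied in AngII-driven hypertension.

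T cells made up 15.7% of the filtered steady-state barcodes (95% interval 11.8 to 20.3) and 7.65% of the AngII barcodes (6.86 to 8.49). These are shares of sorted CD45-positive cells, and how many cells each animal gave is unknown, so fewer T cells and more other leukocytes cannot be told apart. Intervals on shares are Clopper-Pearson intervals and those on levels are exact Poisson intervals. All of them cover counting error alone and say nothing of the spread between animals. With each barcode thinned at random to 1000 UMIs and the rule applied afterwards, T cells were 36 of 303 barcodes at steady state (11.9%, 8.46 to 16.1) and 172 of 2288 on AngII (7.52%, 6.47 to 8.68), and the 3 and 1910 shallower barcodes were left out. Among barcodes of 2000 UMIs or more they were 47 of 296 (15.9%, 11.9 to 20.5) and 107 of 1330 (8.05%, 6.64 to 9.64). With no complement UMI allowed, 38 of 306 steady-state and 143 of 4198 AngII barcodes were members.

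The libraries differed in depth. A steady-state T cell held a median of 8557 UMIs (1731 to 48618), and an AngII T cell held a median of 1100 (501 to 44358). On AngII, 214 of the 321 T cells (66.7%) had under 2000 UMIs, against 1 of 48 at steady state. The shares of *Cd4* and *Cd8a* cells are therefore given for the 107 AngII and 47 steady-state T cells with 2000 UMIs or more, a limit chosen after the depths were seen, and many ratios on AngII also for a narrower set of such cells. The T cells held 508657 UMIs at steady state and 1475019 on AngII, the libraries shared 0 barcodes, and doublets were left in.

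**Figure D1:**
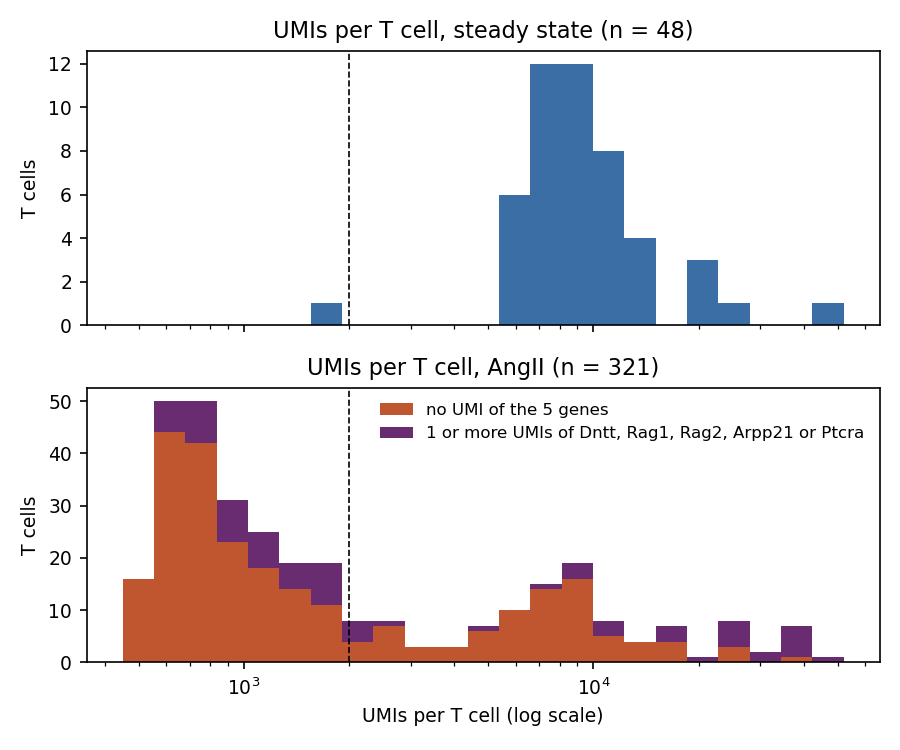
UMIs per T cell (x axis, log scale) against the number of T cells (y axis) at steady state (blue) and on AngII (orange and purple), with a dashed line at 2000 UMIs. On AngII 214 of 321 T cells lie under the line, and the 73 T cells with a UMI of *Dntt*, *Rag1*, *Rag2*, *Arpp21* or *Ptcra* (purple) lie on both sides of it.

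At the edge of the rule, 8 steady-state and 313 AngII barcodes had a UMI of exactly 1 of the 6 genes and were not members, while 3 and 88 members had exactly 2. All 6 genes were found in 15 steady-state and 65 AngII T cells. The limit on complement genes removed 2 and 91 barcodes that passed the other conditions. Members with 0, 1 and 2 such UMIs numbered 38, 8 and 2 at steady state and 143, 125 and 53 on AngII, and 34 AngII barcodes with 2 or more of the 6 genes had 3.

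The label fitted the leading genes that the rule did not use. Among all genes, the 10 with the highest level in T cells over other barcodes, taken by the smaller ratio of the 2 libraries, were *Lck*, *Tcf7*, *Lat*, *Lef1*, *Bcl11b*, *Thy1*, *Skap1*, *Cd8b1*, *Nkg7* and *Cd28*. *Lck*, the kinase that starts receptor signalling, stood at 228 CPM (UMI counts scaled to the summed UMIs of the group) in steady-state and 313 CPM in AngII T cells, and at 3.82 and 5.62 CPM in the barcodes outside the rule. *Trbc2*, which encodes a constant part of the beta chain, stood at 1044 and 2395 CPM in the T cells and at 17.5 and 33.9 CPM outside. Reads of *Trbc1* and *Trbc2*, which are near-identical copies, may be split between them.

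Some members also carried genes of other cells. At least 2 of 6 natural killer (NK) cell genes were found in 4 steady-state and 9 AngII members, at least 2 of 7 genes of type 2 innate lymphoid cells (ILC2) in 5 and 17, at least 2 of 6 macrophage genes in 2 and 71, and at least 2 of 4 B cell genes in 0 and 0. *Lyz2*, the lysozyme gene of myeloid cells, was found in 13 of 48 and 209 of 321 members. Its level on AngII was 2178 CPM in members under 2000 UMIs and 882 CPM over all members, against 350 CPM over all members at steady state. The share of free RNA and of doublets in these values was not tested.

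The T cells were split by UMIs of *Cd4* (chromosome 6, 124864692 to 124888221), *Cd8a* (chromosome 6, 71373427 to 71379173) and *Trdc* (chromosome 14, 54142851 to 54148868), the constant gene of the delta chain. Coordinates are from GENCODE M21 on GRCm38. At steady state 9 T cells carried only *Cd4*, 15 only *Cd8a*, 2 only *Trdc*, 1 more than 1 of the 3 and 21 none. On AngII the numbers were 45, 35, 7, 8 and 226, and the median depth of the 226 was 842.5 UMIs, so that a missing UMI there is no sign of a missing gene.

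Among cells of 2000 UMIs or more, only-*Cd4* cells were 9 of 47 at steady state (19.1%, 9.15 to 33.3) and 40 of 107 on AngII (37.4%, 28.2 to 47.3). Only-*Cd8a* cells were 14 of 47 (29.8%, 17.3 to 44.9) and 21 of 107 (19.6%, 12.6 to 28.4). *Cd4*-carrying cells were thus fewer than *Cd8a*-carrying cells at steady state and more numerous on AngII, with overlapping intervals in both libraries. The order on AngII did not hold after thinning to 1000 UMIs, where 12 only-*Cd4* and 18 only-*Cd8a* cells were counted among 172, against 2 and 5 among 36 at steady state. The *Cd4* level was 31.5 CPM in steady-state T cells and 89.5 CPM on AngII, and *Cd8a* stood at 102 and 105 CPM.

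*Cd4* and *Cd8a* cells differed by few genes that held in both libraries. Of 963 genes with a mean of at least 100 CPM over the classes in each library, 3 were at least 2-fold higher in the *Cd4* class in both libraries (*Malt1*, *Cd28*, *Rbm8a*) and 6 were at least 2-fold higher in the *Cd8a* class in both (*Ly6c2*, *Cd8b1*, *Nkg7*, *Epsti1*, *Ccl5*, *Klrd1*). The interval of *Malt1* at steady state included 1 (2.13-fold, 0.996 to 4.54). With cells that carried *Dntt*, *Rag1*, *Rag2*, *Arpp21* or *Ptcra* left out, *Rbm8a* on AngII was 1.72-fold (0.903 to 3.44) and *Klrd1* 0.563-fold (0.356 to 0.887) in the *Cd4* over the *Cd8a* class, so that neither was past 2-fold in both libraries. *Cd8b1*, the partner chain of CD8, stood at 1171 CPM in the *Cd8a* class and 15.1 CPM in the *Cd4* class at steady state, and at 748 and 68.5 CPM on AngII. *Ccl5*, a chemokine of effector T cells, stood at 709 CPM (*Cd8a* class) and 241 CPM (*Cd4* class) at steady state and at 2373 and 234 CPM on AngII. *Cd28*, the co-stimulatory receptor, stood at 407 CPM in the *Cd4* class and 199 CPM in the *Cd8a* class at steady state and at 445 and 189 CPM on AngII.

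The 8 AngII cells with UMIs of both co-receptors led to a further look. All 8 held a UMI of *Dntt*, *Rag1*, *Rag2*, *Arpp21* or *Ptcra*. *Dntt* (chromosome 19, 41029275 to 41059525) encodes the polymerase that adds bases at the joints of receptor genes, *Rag1* and *Rag2* encode the recombinase that cuts the segments, *Ptcra* encodes the stand-in alpha chain of precursors and *Arpp21* is a gene of early thymic and neuronal cells. In textbook descriptions these genes mark T cells under development. They were chosen after their values had been seen, so what follows is a description with no test.

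*Dntt* was found in 68 of 321 AngII T cells with 308 UMIs in all (209 CPM) and in 0 of 48 steady-state T cells, which allows up to 5.90 CPM at 3 UMIs. Outside the rule it stood at 4.90 CPM on AngII (48 of 3877 barcodes) and 0.319 CPM at steady state (1 of 258), and it had 0 UMIs in the B cells of both libraries. Any of the 5 genes was found in 73 AngII T cells, of which 44 had under 2000 UMIs, and in 1 steady-state T cell, with 1 UMI of *Ptcra*. Cells with at least 2 such UMIs and at least 2000 UMIs in all numbered 23 on AngII and 0 at steady state.

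The 23 cells were deep, with a median of 24903 UMIs (6733 to 44358), against 7116 for the 78 AngII T cells of 2000 UMIs or more that had none of the 5 genes. Genes with few UMIs are found more readily in deep cells, so this choice itself favours deep cells in the 23 and shallower cells in the 78. The shares of cells with a UMI given below for these groups were not corrected for depth, while CPM values are scaled to summed UMIs. All 23 held UMIs of all 6 receptor genes. *Dntt* was found in each of the 23, with 1 to 44 UMIs and a median of 8, while *Arpp21* was found in 16, *Rag1* in 5, *Rag2* in 3 and *Ptcra* in 3. Both co-receptors were found in 6 of them, only *Cd4* in 10, only *Cd8a* in 4, neither these nor *Trdc* in 3 and *Trdc* in 0.

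Some genes known from developing T cells, outside the 5 that picked the cells, were high in the same 23 cells. The choice to show them was not fixed beforehand, so they add no independent support. *Satb1*, a chromatin organiser of thymocytes, was found in 23 of 23 with 3 to 43 UMIs per cell (758 CPM in all), and in 44 of the 78 other deep AngII T cells (387 CPM). *Sox4*, a transcription factor of progenitors, was found in 23 of 23 with 3 to 31 UMIs (465 CPM) and in 8 of 78 (48.0 CPM), and in 1 of 46 deep steady-state T cells without the 5 genes. *Itm2a*, a surface protein induced during selection, was found in 22 of 23 (469 CPM), 15 of 78 (72.0 CPM) and 7 of 46 cells. *Ccr9*, the homing receptor for thymus and gut, was found in 18 of 23 (305 CPM), 10 of 78 (87.0 CPM) and 9 of 46, and *Notch1*, the receptor that commits cells to the T lineage, stood at 289 CPM against 67.5 CPM.

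Several genes of recirculating and effector T cells were low in the 23 cells, although the 9 genes of the naive and recirculation list summed to 2820 CPM there and to 2443 CPM in the 78. *Il7r*, the interleukin 7 receptor, was found in 3 of 23 (22.9 CPM), 44 of 78 (552 CPM) and 39 of 46 steady-state cells. *S1pr1*, the receptor for exit into lymph, was found in 2 of 23 (3.52 CPM) and in 33 of 78 (175 CPM). *Ccl5* had 0 UMIs in the 23 cells and stood at 2530 CPM in the 78, *Nkg7*, a cytotoxic granule gene, at 1.76 against 676 CPM, *Cxcr6* at 0 UMIs against 219 CPM and *Cd69*, an activation and residence marker, at 8.81 against 318 CPM. Other genes of both kinds were high. *Tcf7* was 3.45-fold, *Lef1* 3.48-fold and *Satb1* 1.96-fold the level of the 78, and *Gzma* (granzyme A) was found in 19 of the 23 cells at 527 CPM.

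Over 1535 genes with a mean of at least 100 CPM, 339 (22.1%) were at least 2-fold higher and 276 (18%) at least 2-fold lower in the 23 cells than in the 78. A gene can pass this limit through the group in which it is high, and then it has to differ, so counts are also given for genes with at least 100 CPM in both groups. Of these 985 genes, 157 (15.9%) were higher and 81 (8.22%) lower. A list of 17 genes of developing T cells was added after the first lists were fixed. Of these 10 had a mean of at least 100 CPM, and 9 were at least 2-fold higher, *Dntt* among them. Of the 2 with 100 CPM in both groups 1 was past 2-fold, *Ikzf2*. Of 12 proliferation genes 2 had 100 CPM in both groups, *Stmn1* and *Tubb5*, and both were past 2-fold, while 6 others passed through the 23 cells alone. *Stmn1*, a tubulin regulator of dividing cells, stood at 1041 CPM against 121 CPM, and *Mki67*, the usual proliferation marker, at 308 against 75 CPM. It was found in 11 of the 23 cells and 6 of the 78. Of 15 immediate early genes, 7 had 100 CPM in both groups and 7 of these were at least 2-fold lower.

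Genes of other lineages stood at lower, like and higher levels in these cells. Of 9 NK genes 7 were at 0, the 10 macrophage genes summed to 437 CPM against 2711 CPM in the 78, and *Cd79b* and *Ncr1* had 0 UMIs. A single cell of the 78 held 1010 of their 1808 macrophage gene UMIs. *Apoe* was nonetheless found in all 23, with 1 to 22 UMIs. The 8 B cell genes summed to 180 CPM against 204 CPM. The 8 stromal and endothelial genes summed to 120 CPM (18 of 23 cells) against 76.5 CPM (26 of 78), with the smooth muscle actin gene *Acta2* 20.6-fold higher (5.28 to 176). Their part in the differences was not tested. The female transcript *Xist* was found in 23 of 23.

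The genes of the sums below were chosen after the values above were seen, so the sums restate that contrast per cell and add no support. *Tcf7* and *Lef1*, which were high in the 23 cells, were left out. *Satb1* of the naive and recirculation list was placed in the first sum. The sum of *Ikzf2*, *Satb1*, *Sox4*, *Itm2a* and *Ccr9* had a median of 3057 CPM in the 23 cells (698 to 8262), 498 CPM in the 78 and 481 CPM in the 46 steady-state cells. The sum of *Il7r*, *Ccr7*, *S1pr1* and *Klf2* had medians of 120, 1154 and 2970 CPM. As 3' ends are counted, such sums do not scale with gene length. The first sum exceeded the second in 23 of 23, 23 of 78 and 5 of 46 cells, so that some cells without the 5 genes shared the pattern.

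**Figure D2:**
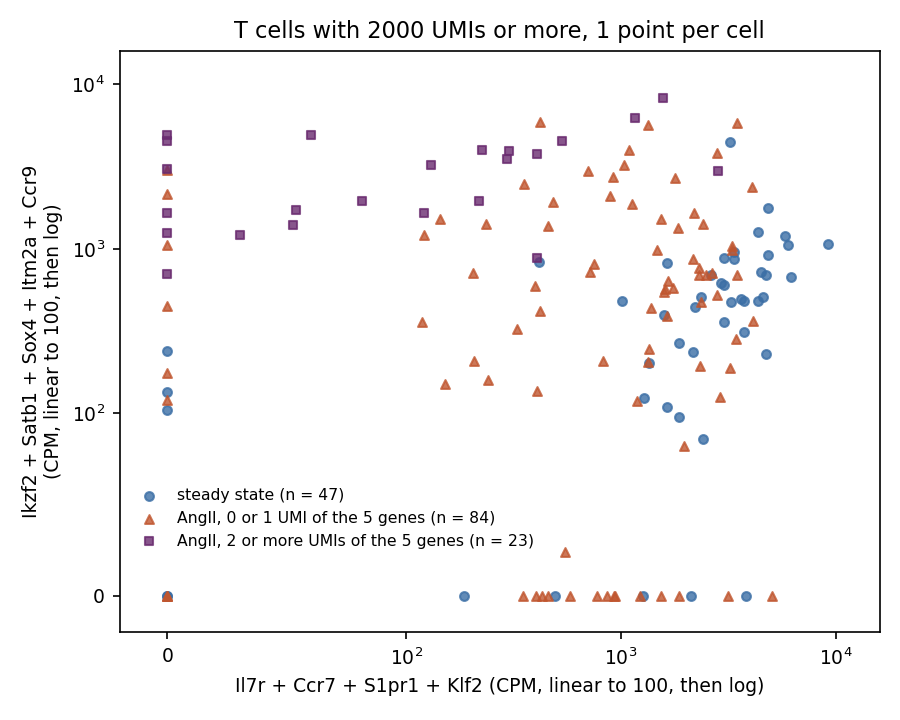
Summed level of *Il7r*, *Ccr7*, *S1pr1* and *Klf2* (x axis, CPM) against that of *Ikzf2*, *Satb1*, *Sox4*, *Itm2a* and *Ccr9* (y axis, CPM) in T cells of 2000 UMIs or more, 1 point per cell; both axes are linear up to 100 CPM and logarithmic above. The 23 AngII cells with 2 or more UMIs of the 5 genes (purple squares) lie mostly at the upper left, and most steady-state cells (blue circles) at the right.

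In a mature T cell population the variable segment of the beta chain is expected to vary from cell to cell. In the 23 cells 32 *Trbv* UMIs were found, from 4 genes. A *Trbv* UMI was found in 17 of them, and all 17 had *Trbv26* (13 cells), *Trbv3* (8 cells) or both (4 cells). As 3' ends are counted, so few UMIs cannot show which segment each receptor used. *Trbv2* and *Trbv23* were found in 1 cell each. At steady state 15 T cells had a *Trbv* UMI, spread over 11 *Trbv* genes with at most 2 cells each, and *Trbv26* and *Trbv3* had 0 UMIs.

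Among the 78 other deep AngII cells, 15 had a *Trbv* UMI from 9 genes, with *Trbv26* in 5, *Trbv3* in 2 and only other genes in 9. Outside the rule *Trbv26* was found with 1 UMI each in 8 of 3877 AngII barcodes. Variable genes were detected in few cells, and 6 of the 23 had none. This pattern was noticed in the data, and its origin was not tested.

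The last 240 coding bases of the variable exons are shown because UMIs of both genes were found in the same cells. Capitals mark the longest run of bases that both sequences hold, 13 bases at the end that joins the next segment. The *Trbv26* stretch lies at chr6:41227754-41227993 and that of *Trbv3* at chr6:41048589-41048828, both on the forward strand of GRCm38, as read from the GENCODE M21 transcripts.
Trbv26: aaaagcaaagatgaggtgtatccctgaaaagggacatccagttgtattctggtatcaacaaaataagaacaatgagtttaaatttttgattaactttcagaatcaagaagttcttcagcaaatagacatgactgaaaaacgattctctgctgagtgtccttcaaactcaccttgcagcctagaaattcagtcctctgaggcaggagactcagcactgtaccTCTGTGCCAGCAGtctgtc
Trbv3: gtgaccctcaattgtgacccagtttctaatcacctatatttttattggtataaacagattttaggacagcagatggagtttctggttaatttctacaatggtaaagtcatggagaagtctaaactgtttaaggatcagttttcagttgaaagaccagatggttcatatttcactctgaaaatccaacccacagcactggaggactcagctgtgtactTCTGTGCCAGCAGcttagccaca
In a global alignment of the whole coding exons (298 and 302 bases), 191 bases were identical, 64.1% of the shorter.

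**Figure D3:**
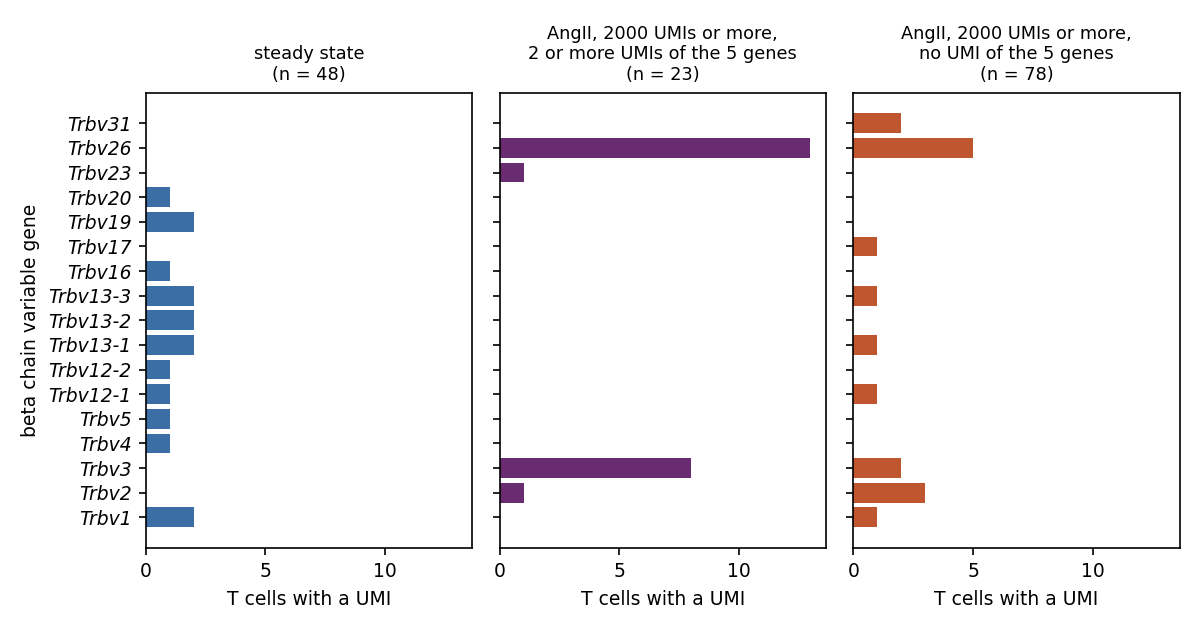
Number of T cells with a UMI (x axis) of each beta chain variable gene (y axis) at steady state (n = 48), in the AngII T cells of 2000 UMIs or more with 2 or more UMIs of the 5 genes (n = 23) and in those with none (n = 78). *Trbv26* (13 cells) and *Trbv3* (8 cells) hold nearly all bars of the middle panel, while no gene exceeds 2 cells at steady state.

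The conditions were compared to ask what distinguished T cells of the inflamed adventitia. A gene entered when the mean of its 2 CPM values was at least 100, and it counted as different from a 2-fold ratio on. Of 1451 genes, 145 (9.99%) were at least 2-fold higher on AngII and 71 (4.89%) at least 2-fold lower, with a median log2 ratio of 0.11 over all of them. When mitochondrial and ribosomal protein genes were taken out of the total, the counts were 156 and 138.

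The counts were lower without the cells that carried any of the 5 genes, at 61 higher and 29 lower. The limit of 2000 UMIs alone left 135 and 70. In the 78 AngII and 46 steady-state T cells that had 2000 UMIs or more and no UMI of the 5 genes, 62 of 1434 genes (4.32%) were higher and 27 (1.88%) lower. These are called the matched cells below, and their values are given beside those of all T cells for many of the genes. The name refers to these 2 conditions alone, and cells were not paired by depth or by genes of other lineages. The median depth was 7116 UMIs on AngII (minimum 2074) and 8557 at steady state (minimum 5579). With at least 100 CPM required in both groups, 58 (5.11%) of 1135 genes were higher and 27 (2.38%) lower in all T cells, and 25 (2.12%) of 1177 higher and 11 (0.935%) lower in the matched cells. Genes were named when the interval of their ratio left out 1 and the ratio stayed past 2-fold without the cell that held most of their UMIs and after thinning to 1000 UMIs, which 84 higher and 36 lower genes met. The 10 most extreme in each direction are described here.

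*Gzma* (chromosome 13, 113093825 to 113100981), a granule protease of cytotoxic cells, had 2 UMIs in 1 of 48 steady-state T cells (3.93 CPM) and 1034 UMIs in 84 of 321 AngII T cells (701 CPM). The ratio was 178 (49.2 to 1474), and 244 (67.4 to 2021) in the matched cells, where 18 of 78 AngII cells and 1 of 46 steady-state cells had the gene and a single AngII cell held 121 UMIs. The 9 AngII members with 2 or more NK genes held 388 of the UMIs, and the 4 such members at steady state held 2. With members that carried genes of other lineages left out, steady state was at 0 and the level on AngII at least 70.1-fold higher. Thinned to 1000 UMIs, steady state was again at 0 and the level on AngII at least 6.21-fold higher. Outside the rule the gene was found in 62 of 3877 AngII barcodes (1.60%, at a median depth of 1091 UMIs, against 26.2% of T cells), and its level was lower on AngII, 16.1 against 38.5 CPM.

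*Ikzf2* (chromosome 1, 69531214 to 69687245), which encodes Helios of regulatory and developing T cells, had 21 UMIs in 8 steady-state T cells (41.3 CPM) and 665 in 122 AngII T cells (451 CPM). The ratio was 10.9 (7.09 to 17.8), and 7.27 in the matched cells. After thinning of the members to 1000 UMIs it was found in 2 of 48 steady-state (4.17%) and 49 of 180 AngII cells (27.2%). Outside the rule it stood at 13.4 CPM at steady state and 15.5 CPM on AngII, where 4.49% of barcodes had a UMI.

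The other higher genes were in large part those of the 23 cells. *Dntt* was at least 35.4-fold higher, and the matched cells, chosen without it, hold none. *Pclaf*, a replication clamp partner, was 41.6-fold higher (5.17-fold in the matched cells), *Stmn1* 12.7-fold (2.72), *Sox4* 24.1-fold (4.72), *Itm2a* 13.8-fold (3.94) and *Prmt7*, an arginine methyltransferase, 21.1-fold (2.79). *Gm12840*, a long non-coding RNA, was 8.79-fold higher (3.93), but it was also 4.07-fold higher outside the rule, as were *Sox4* (14.9-fold) and *Itm2a* (3.28-fold). Outside the rule, 413 of 3877 AngII and 11 of 258 steady-state barcodes had a UMI of the receptor genes it used. These receptor genes were also higher there on AngII, by 1.93-fold (*Trbc2*) to 4.67-fold (*Cd3g*). The part of T cells missed by the rule in the ratios outside it was not tested.

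*Apoe*, the apolipoprotein of macrophages, was 63.9-fold higher in AngII T cells, 880 against 13.8 CPM, and 69.9-fold higher in the matched cells, while outside the rule it stood at 9018 and 7938 CPM. A single AngII member with 41996 UMIs held 435 of the 1298 *Apoe* UMIs, together with 372 of *Lyz2*, and the level without it was 602 CPM. In the matched cells the same member held 435 of 663 *Apoe* UMIs. The level there was 994 CPM with it and 365 CPM without it. The list of 10 macrophage genes summed to 2219 CPM in AngII members (0 to 1010 UMIs per cell, found in 300 of 321) and to 434 CPM at steady state (0 to 101 UMIs, 27 of 48), with no gene of the list at 0 in either. The 6 neutrophil genes summed to 165 CPM (0 to 16 UMIs per cell, 61 of 321) and 7.86 CPM (0 to 1 UMI, 4 of 48, with 3 genes at 0). Their part in the ratios was not tested.

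**Figure D4:**
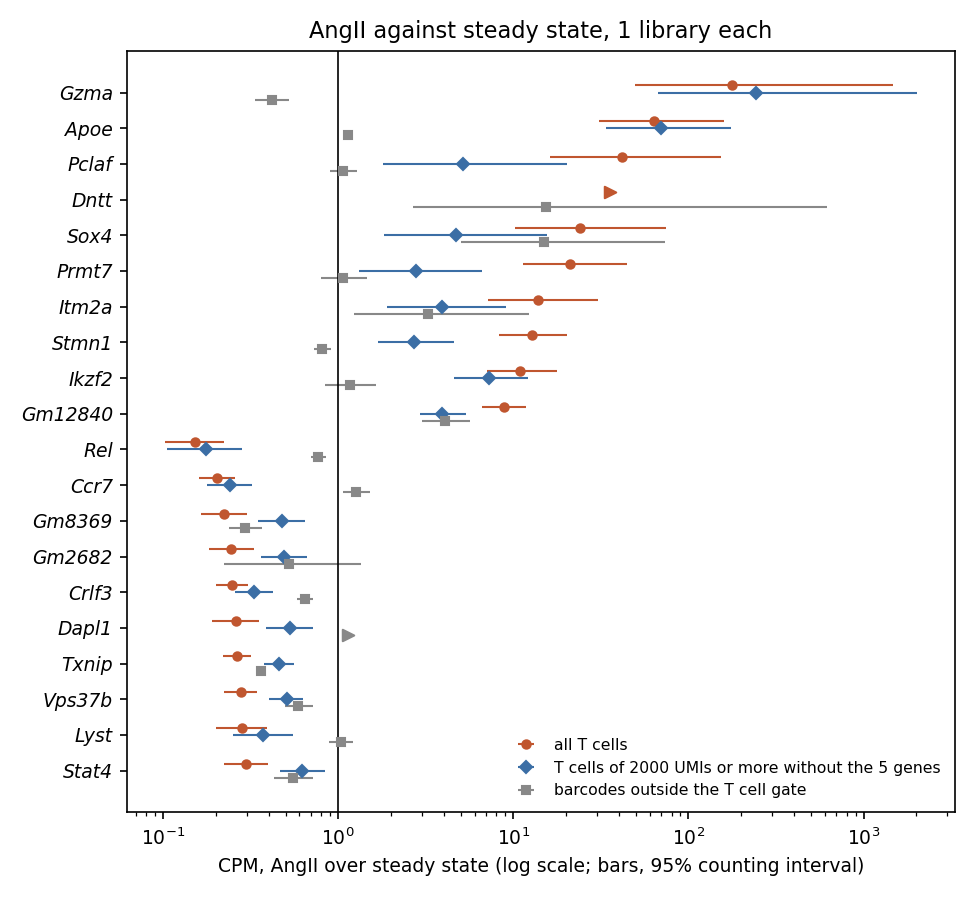
CPM ratio of AngII over steady state (x axis, log scale) for the 10 highest and 10 lowest named genes (y axis) in all T cells (orange circles), in T cells of 2000 UMIs or more without the 5 genes (blue diamonds) and in barcodes outside the rule (grey squares), with bars for the 95% counting interval and triangles for lower bounds against 3 UMIs. *Gzma* and *Ikzf2* keep ratios of 244 and 7.27 in the matched cells, while *Stmn1* and *Pclaf* move from 12.7 and 41.6 to 2.72 and 5.17.

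The 10 lower genes had varied roles. *Ccr7* (chromosome 11, 99144196 to 99155077), the lymph node homing receptor, stood at 385 CPM in steady-state and 78.6 CPM in AngII T cells, a ratio of 0.204 (0.161 to 0.258), and 0.240 in the matched cells. At steady state 1 cell held 60 of the 196 *Ccr7* UMIs, and without that cell the ratio was 0.266. After thinning to 1000 UMIs *Ccr7* was found in 12 of 48 and 13 of 180 cells. Outside the rule it was slightly higher on AngII, at 61.8 against 48.7 CPM, and in B cells it was 0.527-fold.

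*Rel*, an NF-kappaB subunit, stood at 183 and 27.8 CPM (ratio 0.152, and 0.176 in the matched cells). Its steady-state level rested in part on 1 cell with 60 of 93 UMIs, without which the ratio was 0.388. *Crlf3* was 0.248-fold (0.332 in the matched cells), *Lyst*, a lysosomal trafficking regulator, 0.282-fold (0.374) and *Txnip*, the thioredoxin inhibitor, 0.264-fold (0.461). *Txnip* was also lower outside the rule, at 0.363-fold.

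The remaining 5 lower genes were nearer to 1 in the matched cells. *Dapl1*, a gene of naive T cells, stood at 201 and 52.2 CPM in all T cells (0.260-fold) and at 0.528-fold in the matched cells. *Stat4*, the transducer of interleukin 12, was 0.299-fold and 0.623-fold. *Vps37b*, an endosomal sorting gene, was 0.277-fold and 0.507-fold. The non-coding *Gm8369* and *Gm2682* were 0.224-fold and 0.245-fold in all T cells, and 0.474-fold and 0.492-fold in the matched cells.

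The lists of T cell functions were counted in all T cells and in the matched cells. Of 9 naive and recirculation genes 8 passed the limit on level. In all T cells 1 was at least 2-fold higher (*Tcf7*), against 9.99% of all genes, and 5 at least 2-fold lower, against 4.89%, with a median log2 ratio of -1.42 against 0.11. Of the 5 with 100 CPM in both groups 1 was higher and 2 lower (*Il7r* and *Klf2*), and their median log2 ratio was 0.18. In the matched cells 0 were higher and 1 lower (*Ccr7*), against 4.32% and 1.88% of all genes, with a median of -0.69 against 0.08, and of 7 with 100 CPM in both groups 0 were past 2-fold. There *Il7r* was 0.606-fold, *S1pr1* 0.640-fold, *Klf2*, a factor that controls *S1pr1*, 0.632-fold and *Lef1* 0.536-fold.

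*Tcf7* and *Lef1*, factors of naive and developing T cells, stood at 1114 and 705 CPM in the 23 cells, against 322 and 202 CPM in the 78 and 305 and 378 CPM in the 46 steady-state cells. Of the 12 proliferation genes only *Tubb5* had 100 CPM in both groups, at 1.94-fold in all T cells and 1.20-fold in the matched cells. *Mki67*, *Top2a*, *Stmn1* and *Pclaf* passed in all T cells through the AngII group alone.

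Receptor signalling genes were counted in the same way. Of 16 genes 12 passed in all T cells, and 0 were past 2-fold in either direction (median log2 ratio 0.22, range -0.95 to 0.77). In the matched cells 13 passed and 1 was higher, *Icos*, a co-stimulatory receptor, at 181 against 69.1 CPM (2.63-fold), which passed through the AngII group alone. Immediate early genes, which respond to cell dissociation, had 13 of 15 passing, with 0 higher and 1 lower in all T cells (median log2 ratio -0.35) and 0 past 2-fold in the matched cells (0.30). Ribosomal protein genes had 78 of 88 passing, 0 higher and 3 lower (median -0.14). Over all genes, 9.99% were higher and 4.89% lower in all T cells, and 4.32% and 1.88% in the matched cells. With so few genes passing, the receptor signalling counts do not set that list apart from all genes.

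Cytotoxic genes divided in direction by the cells counted. Of 16 genes 7 passed in all T cells, 1 higher (*Gzma*) and 1 lower (median log2 ratio -0.31 against 0.11 over all genes), and of 3 with 100 CPM in both groups 0 were past 2-fold. In the matched cells 8 passed, 3 higher (*Gzma*, *Ccl5* and *Gzmb*, against 4.32% of all genes) and 1 lower (*Xcl1*, against 1.88%), with a median of 0.75 against 0.08. *Xcl1* stood at 193 CPM at steady state and 66.0 CPM on AngII in these cells (0.342-fold), and was 0.272-fold in all T cells. Of the 5 with 100 CPM in both groups *Ccl5* alone was past 2-fold. *Ccl5* there stood at 2530 CPM in 28 of 78 AngII cells and 1112 CPM in 15 of 46 steady-state cells (2.28-fold), and *Gzmb* at 175 and 85.3 CPM (2.06-fold). In all T cells they were 1.11-fold and 0.977-fold. *Gzmb* was found in 14 and 4 of these cells.

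The NK-marker members held much of this program. On AngII those 9 cells carried 928 of the 1761 *Ccl5* UMIs of all T cells and 188 of the 484 *Nkg7* UMIs, and at steady state the 4 cells carried 301 of 547 and 94 of 207. *Cd8a* had 3 UMIs in 1 of the 9 and 0 in the 4. *Ncr1*, the NK receptor NKp46, had 29 UMIs in 5 of the 9 and 30 UMIs in 4 of the 4.

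Regulatory-like T cells were seen in the AngII library. *Foxp3* (chromosome X, 7573644 to 7595245), their defining factor, had 39 UMIs in 8 AngII T cells, all of them among the 78, and 0 UMIs at steady state, which made it at least 9.59-fold higher in the matched cells. The 8 of 78 matched AngII cells (10.3%, 4.53 to 19.2) and the 0 of 46 matched steady-state cells (0 to 7.71%) had overlapping intervals, and the 0 of all 48 steady-state cells allow a share of up to 6.25% of cells with a UMI. *Foxp3* stood at 0.121 CPM outside the rule on AngII.

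The 8 cells carried the companion genes of this lineage. *Ctla4*, an inhibitory receptor, was found in 8 of 8 (868 CPM), *Ikzf2* in 8 of 8 (1446 CPM), *Tnfrsf4* (OX40) in 6 (1003 CPM), *Tnfrsf18* (GITR) in 7 (810 CPM) and *Il2ra*, the interleukin 2 receptor alpha chain, in 4 (270 CPM). *Cd4* was found in 5. In the matched cells *Tnfrsf4* stood at 162 against 8.13 CPM (19.9-fold), *Ctla4* at 130 against 20.3 CPM (6.42-fold) and *Il2ra* at 99.0 against 46.7 CPM (2.12-fold). In all T cells *Il2ra* was lower on AngII, at 47.5 against 62.9 CPM (0.754-fold). Of the 12 regulatory genes only 2, *Ikzf2* and *Tnfrsf18*, reached the limit on level in the matched cells, both through the AngII group alone.

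Some interferon response genes were higher in the matched AngII T cells. Of 14 genes 5 passed, and 3 were at least 2-fold higher, against 4.32% of all genes, with a median log2 ratio of 1.32 against 0.08. Of the 3 with 100 CPM in both groups 2 were past 2-fold, *Ly6a* and *Ifi27l2a*, against 2.12% of all genes. *Ly6a* (Sca-1) stood at 565 against 138 CPM (4.09-fold), *Ifi27l2a* at 889 against 252 CPM (3.53-fold) and *Bst2* (tetherin) at 172 against 69.1 CPM (2.5-fold). In all T cells they were 1.87-fold, 1.93-fold and 2.11-fold. The same genes were higher outside the rule, by 5.68-fold, 1.54-fold and 2.42-fold, and in B cells by 4.81-fold, 3.63-fold and 7.30-fold. In the 23 cells *Ly6a* stood at 8.81 CPM and *Ifi27l2a* at 59.9 CPM.

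Effector cytokines were sparse. *Ifng* had 11 UMIs in 4 steady-state and 21 in 9 AngII T cells. *Il17a* had 0 UMIs at steady state and 11 in 5 AngII T cells, *Il22* 0 and 5 in 4, *Il4* 0 and 1, and *Il13* 0 and 0. *Ltb* (lymphotoxin beta) stood at 375 and 373 CPM in all T cells and at 362 and 625 CPM in the matched cells (1.73-fold, 1.45 to 2.07). *Tnfsf11*, the ligand of RANK, had 16 UMIs in 5 steady-state and 65 in 33 AngII T cells, 12 of which belonged to the 23.

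Chemokine and residence receptors varied within the T cells. *Cxcr6*, a receptor of tissue-resident T cells, stood at 106 CPM in 14 of 46 matched steady-state cells and at 219 CPM in 32 of 78 on AngII (2.07-fold), while in all T cells it stood at 134 and 106 CPM (0.796-fold). *Ccr2*, which binds monocyte chemokines, stood at 374 and 385 CPM in the matched cells and at 7.05 CPM in the 23. The residence genes *Cd69* and *Rgs1* stood at 248 and 318 CPM and at 287 and 286 CPM in the matched cells. In all T cells *Ccr2* was 0.530-fold, *Cd69* 0.624-fold and *Rgs1* 0.560-fold. *Itgae* and *Zfp683* had under 30 UMIs each in either library.

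Of the receptors for AngII itself, *Agtr1a*, *Agtr1b* and *Agtr2* had 0 UMIs in the T cells of both libraries, as had *Mas1* and the mineralocorticoid receptor *Nr3c2*. *Nr3c1*, the glucocorticoid receptor, stood at 144 and 107 CPM in all T cells (0.746-fold) and at 142 and 193 CPM in the matched cells (1.36-fold, 1.01 to 1.85). A count of 0 over the library allows up to 5.90 CPM at steady state and up to 2.03 CPM on AngII.

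Gamma delta T cells were few. *Trdc* had 26 UMIs in 3 steady-state and 89 UMIs in 7 AngII T cells, and the gamma constant gene *Trgc1* had 33 UMIs in 6 and 50 in 10. The 7 only-*Trdc* cells on AngII carried *Il17a* in 2 (4 UMIs), *Cd163l1* in 2 (12 UMIs) and *Trdv4* in 2 (18 UMIs), which are genes of interleukin 17 producing gamma delta cells. At steady state 1 of the 2 only-*Trdc* cells carried *Cd163l1* (14 UMIs), *Maf* (21 UMIs) and *Blk* (6 UMIs). Of 12 type 17 genes 3 passed, and their log2 ratios in all T cells lay between -0.01 and 0.01. In the matched cells *Maf* was 2.97-fold (2.04 to 4.44), *Tmem176a* 2.12-fold (1.54 to 2.94) and *Tmem176b* 1.91-fold (1.46 to 2.5), of which *Maf* passed through the AngII group alone.

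The fate label was rare in T cells. A UMI of the reporter transcript (*Yfp*) was found in 6 of 48 steady-state (12.5%, 4.73 to 25.2) and 13 of 321 AngII T cells (4.05%, 2.17 to 6.83). In macrophages, defined by 2 or more macrophage genes and over 2 complement UMIs, it was found in 106 of 136 (77.9%, median depth 10566 UMIs) and 316 of 2004 (15.8%, 1220 UMIs). B cells, which serve as the background for free RNA, had it in 0 of 50 (median depth 5582 UMIs) and 1 of 96 (1.04%, 4078 UMIs).

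At full depth the label was found most often, among the T cells, where ILC2 genes were found. Of the members with 2 or more ILC2 genes, 4 of 5 at steady state and 6 of 17 on AngII had a *Yfp* UMI, and 5 of the 12 that had none of the 5 genes. Members with under 2 ILC2 and under 2 NK genes had it in 2 of 39 (5.13%, 0.627 to 17.3) and 7 of 295 (2.37%, 0.959 to 4.83), intervals that overlap those of the B cells (up to 7.11% and 5.67%). NK-marker members had it in 0 of 4 and 0 of 9. Only-*Cd8a* cells had it in 0 of 15 and 0 of 35.

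Receptor genes were found in some of the ILC2-marker members. *Cd3e* and *Trac* are among the 6 genes of the rule and are given as a description. At steady state 1 of the 5 had a UMI of *Cd3e* and 1 of *Trac*, while *Il1rl1*, the interleukin 33 receptor, had 51 UMIs in all 5 and *Gata3*, the type 2 factor, 34 in all 5. On AngII the 12 without the 5 genes had *Cd3e* in 6, *Trac* in 5, *Il1rl1* in 12 and *Areg* (amphiregulin) in 7. The AngII member with most *Yfp*, 8 UMIs, was the same cell of 41996 UMIs that held 372 *Lyz2* and 435 *Apoe* UMIs. With every member thinned to 1000 UMIs *Yfp* was left in 2 of 48 and 2 of 180, and *Tnfrsf11a* itself had 2 UMIs in each library's T cells.

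**Figure D5:**
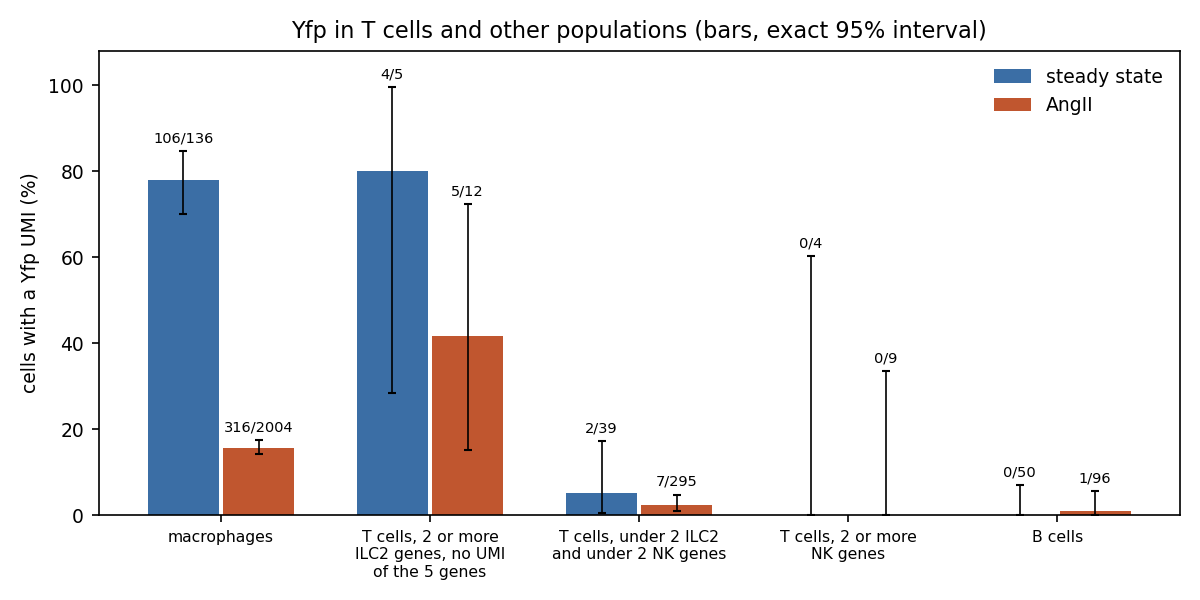
Share of cells with a *Yfp* UMI (y axis, %) in macrophages, groups of T cells and B cells (x axis) at steady state (blue) and on AngII (orange), with exact 95% intervals and the counts above them. Bars are high for macrophages at steady state (106 of 136) and for T cells with 2 or more ILC2 genes and no UMI of the 5 genes (4 of 5 and 5 of 12). They are lower for macrophages on AngII (316 of 2004) and the other T cells and B cells. Depth differs between the groups.

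The sexes of the pooled animals differed between the libraries. Of the steady-state T cells 13 had UMIs of *Xist* alone, 27 of Y-linked genes alone, 1 of both and 7 of neither, while on AngII 229 had *Xist* alone, 0 had a Y-linked gene and 92 had neither. The barcodes outside the rule showed the same, with 149 of 258 carrying Y-linked genes alone at steady state and 0 of 3877 on AngII. The condition, the sex of the animals and the library therefore cannot be told apart in any ratio of AngII over steady state given here.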

How the data were processed

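Single-cell transcripts of CD45-positive adventitial cells were read with 10x 3' v3.1 chemistry in 2 libraries, 1 per condition. The authors made the files with Cell Ranger 3.1.0 and bcl2fastq on GRCm38.p6, per the submitters' processing notes, with the reporter sequence added, and deposited raw UMI counts per gene and barcode (55386 features) without normalization.

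The filter took barcodes of 300 to 6500 genes with no more than 5% mitochondrial UMIs, T cells were called by the rule in the text, and counts were summed per group into CPM. No doublet caller was run. Ratios carry exact conditional 95% intervals, and a group at 0 was set to 3 UMIs. Genes entered a comparison at a mean of at least 100 CPM, and counts with at least 100 CPM in both groups were added after seeing values. Cells were thinned without replacement to 1000 UMIs, or 2000 as an alternative. With 1 library per condition no test was made. Steps were tested on simulated counts. The members and gene lists were chosen with earlier results of these data known. The 5 genes *Dntt*, *Rag1*, *Rag2*, *Arpp21* and *Ptcra*, the 2000 UMI limit, the variable gene and sex-linked counts and the summed gene sets were chosen after seeing values. The list of developing T cell genes was added after the first lists were fixed. Any listed gene could be named. Of the naive and recirculation list 1 gene is not reported here. Of all genes, the 10 highest and 10 lowest ratios on AngII past the stated conditions, up to 8 in each direction between the *Cd4* and *Cd8a* classes and the 10 highest in T cells over other barcodes were named. Gamma constant genes appear as *Trgc* in the files. The alternatives changed the filter, rule, depth, CPM and limit on level. Positions are from GENCODE M21, while the authors counted on another release of the same build. Python 3.11.15, NumPy 2.4.6, SciPy 1.17.1, pandas 2.3.3, Matplotlib 3.10.9 and Biopython 1.88 were used.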

Additional observations from a re-analysis of the deposited data

Results flagged for a closer look

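The ratios of 3 named genes pointed the other way outside the T cell rule. *Gzma* was 0.417-fold on AngII in the other barcodes, *Stmn1* was 0.813-fold and *Ccr7* was 1.27-fold, against 178-fold, 12.7-fold and 0.204-fold in the T cells. The difference between the populations was not tested.

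Barcodes that the filter on genes and mitochondrial UMIs removed were also searched. On AngII 12 of 221 removed barcodes (5.43%) met the T cell rule, against 1 of 40 (2.5%) at steady state. Of the 12, 5 had 2 or more UMIs of *Dntt*, *Rag1*, *Rag2*, *Arpp21* or *Ptcra*, against 0 at steady state.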

How the results depend on the processing

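No paired analysis was possible because each condition has 1 library and the labels give no replicate numbers, and leaving out a replicate was likewise not possible. With at least 1000 genes per barcode the AngII shares were 35.1% for only-*Cd4*, 19.3% for only-*Cd8a* and 7.02% for *Yfp*. Requiring 3 or more of the 6 genes gave an AngII T cell share of 5.55%, and allowing no complement UMI gave 3.41% with only-*Cd4* at 19.6%. Leaving out members with 2 or more genes of other lineages gave 5.43%, with 116 genes lower on AngII. Thinned to 1000 UMIs, only-*Cd4* and only-*Cd8a* cells were 5.56% and 13.9% at steady state, only-*Cd4* 6.98% and *Yfp* 1.16% on AngII, and 243 genes were higher and 184 lower. Thinned to 2000, only-*Cd4* was 6.98% at steady state and only-*Cd8a* 15.1% on AngII. With 2000 UMIs or more, AngII shares were 37.4%, 19.6% and 7.48% for *Yfp*. With the 5 genes also excluded they were 35.9%, 21.8%, 5.13% for only-*Trdc* and 7.69% for *Yfp*, with 62 genes higher and 27 lower. Without the 5 genes at any depth the counts were 61 and 29. The mean of the cells' own CPM gave 110 lower, a limit of 50 CPM 298 and 158, a limit of 200 CPM 52 and 22, at least 100 CPM in both groups 58 and 27, and leaving mitochondrial and ribosomal protein genes out of the CPM 138 lower. The causes were not tested, apart from the limits on level, which change how many genes enter.

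The direction of the 20 named genes held in 298 of 298 alternative values. The 2000 UMI and 5-gene alternatives and the limit in both groups were chosen after seeing the data. AngII T cells of 1100 UMIs limit what can be read from an absent gene, above all co-receptors, variable genes and *Yfp*.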
